A study of Danio rerio with 2 samples.

Results

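The introns described here are the listed introns nearest the 5' end of long zebrafish genes, 1 for each gene with 5 or more listed introns. For each gene identifier of its own (Refseq), the listed intron with the smallest start was taken on the plus strand and the one with the largest end on the minus strand. This gave 4474 introns in 4474 genes, out of 55660 listed introns and 10715 such identifiers. They were set against the 31401 inner introns of the same genes, which are all listed introns that are neither the 5'-most nor the 3'-most one. An intron was listed only where it had at least 1 read in each library, so the 5'-most listed intron is not always the first intron of the gene model. Of the 4474, 4464 had a gene value and 1824 also had at least 20 reads over both libraries, the minimum for a comparison of reads between libraries. A further 2648 fell short of that minimum.

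Most introns are removed by the major spliceosome, and a small class with its own splice-site sequences, the U12-type introns, is removed by the minor spliceosome. Splicing starts while the transcript is still being made, so an intron near the 5' end is exposed to the splicing machinery for longest before the transcript is released. First introns are known in many animals to be longer than later ones and to hold regulatory sequence. In poly(A)-selected RNA, intronic reads come from transcripts that kept an intron, from unfinished or partly degraded molecules, and from other transcripts made inside the intron.

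The samples were 1 library from homozygous clbn mutant larvae (allele clbns841; clbn stands for caliban) and 1 library from homozygous wildtype larvae. Both were whole zebrafish at 108 hours post-fertilization, raised at 28.5 °C with 0.003% phenylthiourea from 24 hours on to prevent pigment. Each library held RNA from about 60 larvae, genotyped singly and then pooled, and the RNA was selected for poly(A) in 2 rounds. The series asks how splicing and gene expression change in a larva deficient in U12-type splicing. With 1 library per genotype no difference has a replicate check, and every test on reads compares these libraries, not the genotypes.

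The mutant library held 25718058 reads and the wildtype library 28309779. The gene mutated in caliban is rnpc3 as far as background knowledge goes, and it codes for a protein of the minor spliceosome. It had 109 gene reads in the mutant library and 273 in the wildtype library, and with 4 listed introns it is not among the long genes. Of 17 marker genes of larval tissues (muscle, lens, liver, pancreas, neuron, retina, blood and skin), 14 had a gene value, between 2.03 and 4479 in the mutant library and between 4.64 and 4615 in the wildtype library. Pancreas and lens markers were lower in the mutant library. The gene value was 854 in the mutant and 2618 in the wildtype library for prss1, 76.9 in the mutant and 359 in the wildtype library for amy2a, 331 in the mutant and 802 in the wildtype library for crybb1, and 2.03 in the mutant and 4.64 in the wildtype library for cryba1a. The other 10 markers differed by less than 1.5-fold. The part of tissue content in the results on introns was not tested. In whole larvae, fewer cells of a type and less RNA per cell cannot be told apart.

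The 5'-most introns were long. Their median length was 2091 bp, against 1145 bp for the inner introns. The 5'-most intron was the longest listed intron in 1354 genes (30.3%), where an equal chance for every listed intron of each gene would give 13.4%. The 3'-most intron was the longest in 14.6% of the genes. In 3085 genes (69.0%) the 5'-most intron was longer than the median of its gene's inner introns. The genes had a median of 7 and at most 64 listed introns. They lay on the minus strand in 2834 cases and on the plus strand in 1640, although the 10715 identifiers were split more evenly, into 5592 on the minus strand and 5123 on the plus strand. The median identifier had 5 listed introns on the minus strand and 3 on the plus strand. The cause of this imbalance was not tested, and results are given by strand below.

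Per unit length, reads from 5'-most introns were scarcer than reads from the other places compared in the same genes. The authors' retention coefficient divides an intron's reads per unique kilobase by the value of its gene. The gene value has no stated unit, but it behaved as reads per unique exonic kilobase, in which case 1 would mean as many reads per base as in the exons. Its median over 5'-most introns was 0.0157 in the mutant library and 0.0145 in the wildtype library. Over inner introns it was 0.0309 in the mutant library and 0.0300 in the wildtype library, about the level of the 3'-most introns, 0.0312 in the mutant library and 0.0307 in the wildtype library. The median climbed over the first places from the 5' end, with 0.0227 in the mutant and 0.0220 in the wildtype library for the second listed intron and 0.0268 in the mutant and 0.0256 in the wildtype library for the third. Near the 3' end it levelled off, with 0.0331 in the mutant and 0.0330 in the wildtype library for the third intron from the 3' end and 0.0341 in the mutant and 0.0333 in the wildtype library for the next, above the 3'-most. The order was alike in both libraries.

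Genes on the plus and minus strands both had their lowest median at the 5'-most intron, at different levels. On the minus strand the 5'-most introns had a median coefficient of 0.0192 in the mutant and 0.0176 in the wildtype library, and the inner introns 0.0413 in the mutant and 0.0397 in the wildtype library. On the plus strand the 5'-most introns had 0.0109 in the mutant and 0.0104 in the wildtype library, and the inner introns 0.0164 in the mutant and 0.0162 in the wildtype library. The quartiles of neighbouring places overlapped widely, so that place says little about any single intron.

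**Figure D1:**
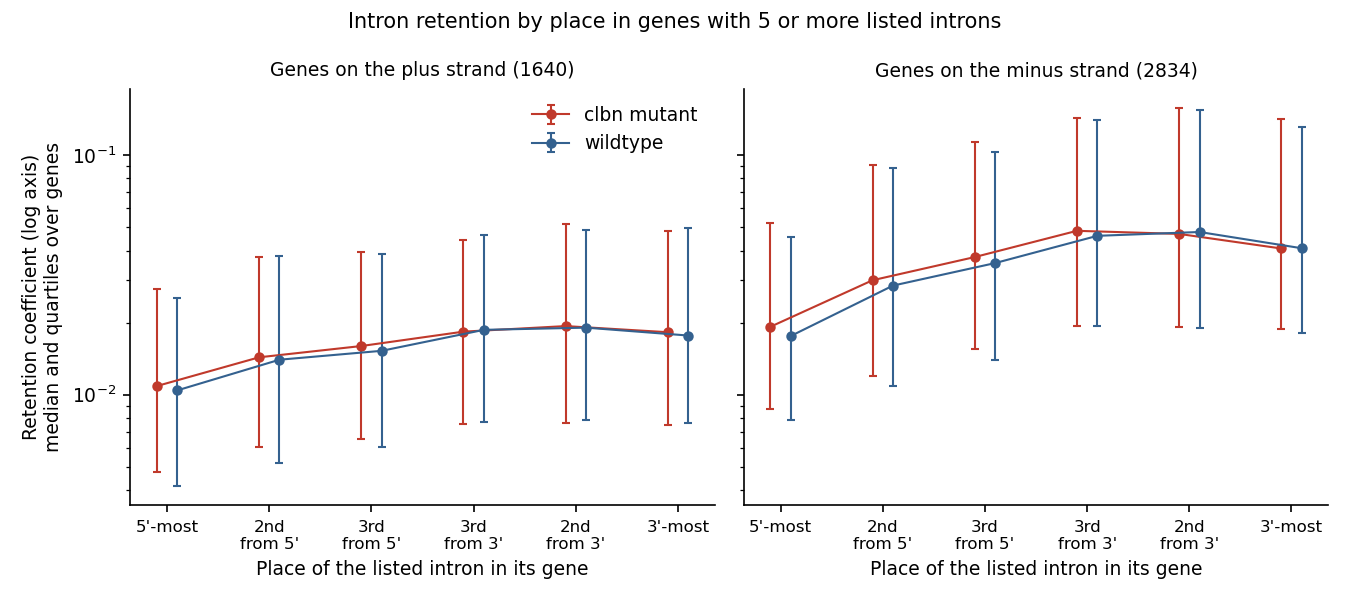
Median retention coefficient (log axis, no unit) by place of the listed intron in its gene, for genes on the plus strand (left) and the minus strand (right), with the clbn mutant library in red and the wildtype library in blue; bars run from the lower to the upper quartile over genes. The lowest median stands at the 5'-most intron in both panels, 0.0109 in the mutant library on the plus strand and 0.0192 on the minus strand; in genes with 5 listed introns the third from either end is the same intron.

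Within most single genes the 5'-most intron was also below the inner introns. For each gene the level of the 5'-most intron (reads per unique base, with 0.5 added to the reads) was divided by that of its summed inner introns, which cancels the gene's expression. The median log2 ratio over the 4474 genes was -0.66 in the mutant library, with a 95% order-statistic interval of -0.72 to -0.60 over genes, and -0.73 (-0.79 to -0.66) in the wildtype library. The 5'-most level was above the inner level in 1556 genes (34.8%) in the mutant library and in 1507 genes (33.7%) in the wildtype library. It was the highest of all listed introns of its gene in 7.04% of genes in the mutant library and 6.84% in the wildtype library, and the lowest in 23.2% in the mutant library and 24.4% in the wildtype library. An equal chance for every listed intron of each gene would give 13.4% for either. Intron length was not matched in these shares. Summed over all genes, the 5'-most introns made up 26.7% of the listed unique intron length. They held 17.2% of the intronic reads in the mutant library and 16.2% in the wildtype library, sums in which introns with very many reads weigh heavily. The median share per gene was 17.3% of the length, 9.47% of the reads in the mutant library and 9.09% in the wildtype library. On the plus strand the median log2 ratio was -0.51 in the mutant and -0.57 in the wildtype library, and on the minus strand -0.75 in the mutant and -0.80 in the wildtype library.

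The size and direction of this gap moved with intron length. Listing needed at least 1 read in each library, which sets a floor per unique base that is higher for shorter introns. The part of this floor in the trend with length was not tested. Where the 5'-most intron was shorter than the mean inner intron of its gene (1661 genes), its level was above the inner level, with a median log2 ratio of 0.61 in the mutant and 0.62 in the wildtype library. Where it was 1 to 4 times as long (1912 genes) the median was -1.06 in the mutant and -1.18 in the wildtype library, and where it was over 4 times as long (901 genes) -1.60 in the mutant and -1.72 in the wildtype library. Against the single inner intron nearest in unique length, within 1.5-fold, the median shrank to -0.26 (-0.33 to -0.20) in the mutant library and -0.33 (-0.42 to -0.27) in the wildtype library, over 2679 genes. In that matched comparison the 5'-most intron was the higher one in 42.7% of genes in the mutant library and 41.1% in the wildtype library.

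**Figure D2:**
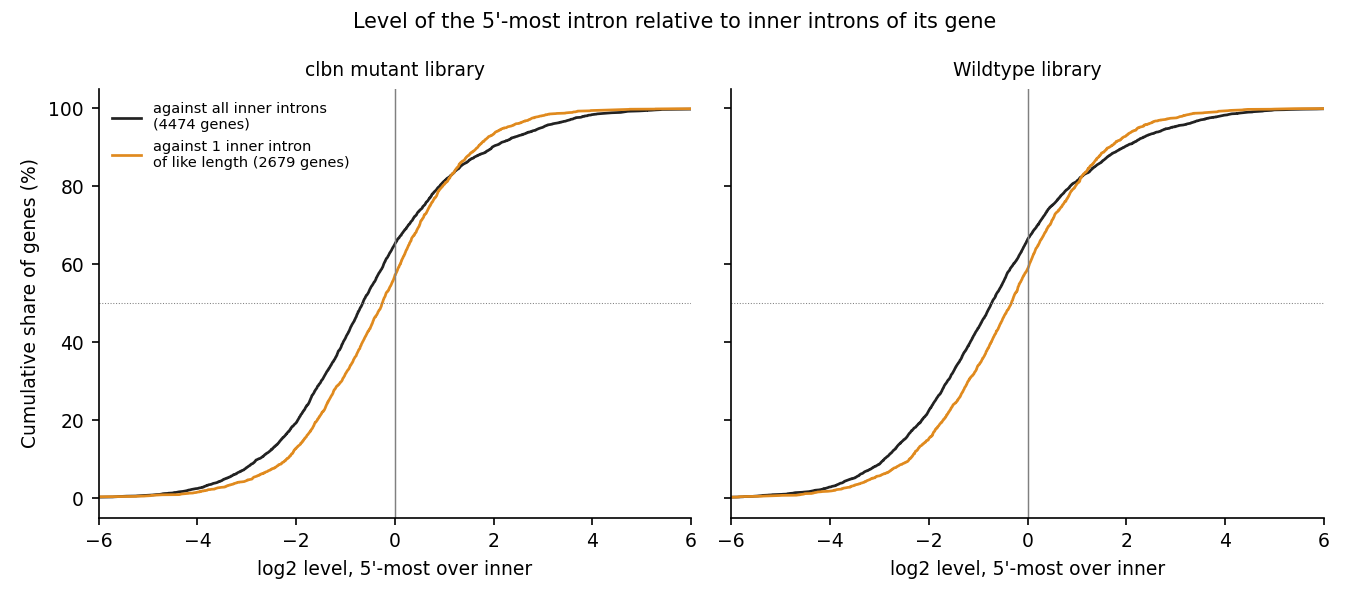
Cumulative share of genes (%) against the log2 level of the 5'-most intron over inner introns of its gene, in the clbn mutant library (left) and the wildtype library (right), with all inner introns summed (black) or 1 inner intron of like length (orange). The black curve crosses 50% at -0.66 in the mutant library and -0.73 in the wildtype library, and the orange curve at -0.26 in the mutant library and -0.33 in the wildtype library.

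Coefficients of listed introns fell with intron length up to 20000 bp at both places. In each length class, with the strands pooled, the 5'-most introns had the lower median. The floor set by the listing rule is highest for short introns, and the 5'-most introns of up to 200 bp had a median of 4 reads in each library. How much of the fall with length comes from this floor was not tested. Up to 200 bp of unique length, 5'-most introns had a median coefficient of 0.130 in the mutant and 0.123 in the wildtype library, against 0.160 in the mutant and 0.155 in the wildtype library for inner introns. From 1000 to 5000 bp, where 2072 of the 5'-most introns lay, the medians were 0.0111 in the mutant and 0.0105 in the wildtype library, against 0.0153 in the mutant and 0.0147 in the wildtype library for inner introns. From 5000 to 20000 bp they were 0.00933 in the mutant and 0.00849 in the wildtype library, against 0.0115 in the mutant and 0.0109 in the wildtype library for inner introns. Above 20000 bp the 5'-most median was higher than in the class before it, and the places met. There the 229 5'-most introns had 0.0108 in the mutant and 0.00902 in the wildtype library, and the 199 inner introns 0.0110 in the mutant and 0.00940 in the wildtype library. Short introns of up to 200 bp made up 11.7% of the 5'-most introns and 28.4% of the inner ones. By strand, 2 classes went the other way. On the plus strand it was the shortest class, with 0.0734 in the mutant and 0.0660 in the wildtype library at the 5' end and 0.0597 in the mutant and 0.0606 in the wildtype library inside. On the minus strand it was the class above 20000 bp, with 0.0113 in the mutant and 0.00902 in the wildtype library at the 5' end and 0.0105 in the mutant and 0.00866 in the wildtype library inside.

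**Figure D3:**
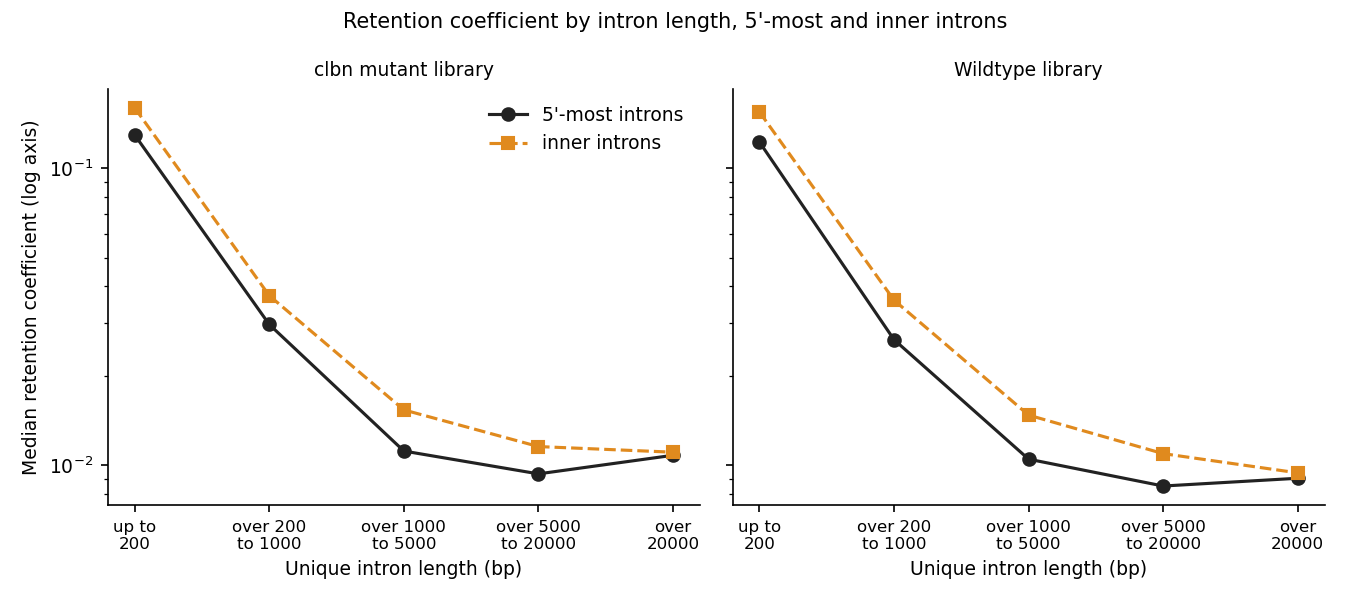
Median retention coefficient (log axis, no unit) by class of unique intron length in bp, for the clbn mutant library (left) and the wildtype library (right), with 5'-most introns as black circles and inner introns as orange squares. The 5'-most medians lie below the inner medians in each class, by the largest ratio between 1000 and 5000 bp and by the smallest above 20000 bp.

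The highest wildtype coefficients among 5'-most introns with at least 20 reads belonged to introns of 77 to 122 bp. That of ncapd3, a condensin subunit gene, had 8 reads in the mutant library and 19 in the wildtype library, with a coefficient of 0.856 in the mutant and 3.16 in the wildtype library. That of mrpl3, for a mitochondrial ribosomal protein, had 22 reads in the mutant and 38 in the wildtype library, with a coefficient of 0.942 in the mutant and 2.07 in the wildtype library. The introns of cyp2aa6 (a cytochrome P450), zdhhc16a (a palmitoyltransferase) and jam2a (a junctional adhesion molecule) had 13, 7 and 8 reads in the mutant library and 24, 17 and 22 in the wildtype library. That of jam2a overlaps a listed intron of another identifier, and that of cyp2aa6 has only 47 bp of unique length out of 117 bp. All 5 had fewer reads in the mutant library, but they were chosen on their wildtype value, and only that of ncapd3 passed the test of reads.

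The most reads lay in very long introns and in an actin gene. The 5'-most intron of cul4a, a cullin of ubiquitin ligases, spans 598291 bp and had 32205 reads in the mutant and 34550 in the wildtype library, while the gene itself had 701 reads in the mutant and 1080 in the wildtype library. Inside it lie 133 listed introns of 29 other identifiers. The intron of ext1c, a heparan sulfate synthesis gene, spans 946433 bp, holds 117 listed introns of 18 other identifiers, and had 13035 reads in the mutant and 13129 in the wildtype library. Only 11 of the 4474 introns held listed introns of another identifier. That of slc8a2b, a sodium and calcium exchanger gene, is 335587 bp long, held 4 of them, and had 4749 reads in the mutant and 5092 in the wildtype library. None of these 3 introns reached a 2-fold change in either direction. In actc1b, a muscle actin gene whose reads could be shared with near-identical actins, an intron of 1686 bp had 9885 reads in the mutant and 9269 in the wildtype library, a coefficient of 0.0218 in the mutant and 0.0192 in the wildtype library. The intron of NM_199957, for which no symbol matched, is 268397 bp long and had 3987 reads in the mutant and 4106 in the wildtype library. The long introns of the adhesion genes ncam2 (319131 bp) and cadm1a (299036 bp) had 211 and 360 reads in the mutant library and 201 and 298 in the wildtype library.

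Between the libraries, 5'-most introns were a little higher in the mutant library than other introns were. To compare them, intronic reads were divided by gene reads in each library, with 0.5 added to each number, and the log2 of mutant over wildtype was taken. Its median over the 1824 tested 5'-most introns was 0.12, with an interval of 0.08 to 0.15 over introns. It was 0.02 over 11592 tested inner introns and 0.03 over all 20223 tested introns. The median was lower at the other places compared, with 0.08 for the second listed intron, 0.05 for the third and -0.01 for the 3'-most. The quartiles of the 5'-most introns were -0.26 and 0.52, a spread far wider than the gap between the medians. By strand the 5'-most median was 0.15 on the plus strand and 0.09 on the minus strand.

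An intron was called at an adjusted p under 0.05 in Fisher's exact test of intronic and gene reads (two-sided, Benjamini-Hochberg over all 20223 introns) and a change of at least 2-fold. Of the 1824 tested 5'-most introns, 69 were called higher in the mutant library (3.78%, exact binomial interval 2.96 to 4.76) and 21 lower (1.15%, interval 0.714 to 1.75). Among all tested introns 2.92% were called higher and 1.46% lower, and among the inner introns of the same genes 2.73% higher and 1.48% lower. The share of higher calls at the 5' end was thus near the background, and its interval reaches close to it. At a 4-fold minimum 25 were higher (1.37%) and 3 lower (0.164%), against 1.54% higher and 0.47% lower among all tested introns, so that the share of higher calls was no longer above the background. With reads scaled by library total in place of gene reads, 91 were higher (4.99%) and 43 lower (2.36%), against 3.89% higher and 2.47% lower among all tested introns. Relative to gene reads and at 2-fold, the next places had like shares of higher calls. They were 3.60% for the second listed intron (56 of 1556) and 3.95% for the third (62 of 1568). At the 4-fold minimum each of these places had 32 higher calls. The share of higher calls at 2-fold was thus not particular to the 5'-most intron.

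These shares differed with intron length, which differs between the places. Among introns of 5000 to 20000 bp, 4.52% of 5'-most and 2.84% of inner introns were called higher. Above 20000 bp it was 4.37% of 5'-most and 5.53% of inner introns. The median log2 ratio also moved with length at both places. It was -0.05 for 5'-most and 0.02 for inner introns up to 200 bp, and 0.21 for 5'-most and 0.14 for inner introns above 20000 bp. Between 1000 and 5000 bp it was 0.12 for 5'-most and 0.01 for inner introns. In the 2 remaining classes the places lay close together. From 200 to 1000 bp it was -0.02 for 5'-most and -0.01 for inner introns, and from 5000 to 20000 bp 0.10 and 0.08. In that last class the order differed by strand, with 0.15 for 5'-most and 0.06 for inner introns on the plus strand. On the minus strand it was 0.07 for 5'-most and 0.10 for inner introns. The order also differed by strand in the classes up to 200 bp and from 200 to 1000 bp. Up to 200 bp it was 0.17 for 5'-most and -0.001 for inner introns on the plus strand. On the minus strand it was -0.10 for 5'-most and 0.03 for inner introns there. From 200 to 1000 bp it was 0.04 for 5'-most and 0.02 for inner introns on the plus strand, and -0.05 and -0.01 on the minus strand.

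The difference between places was then tested within each gene. Reads of the 5'-most intron and summed reads of its inner introns were compared between the libraries (Fisher's exact test, two-sided, adjusted over the 1814 genes with at least 20 reads in both), so that no gene value entered. The 5'-most intron rose relative to its inner introns in 56 genes (3.09%) and fell in 35 (1.93%). The median difference of log2 ratios was 0.07 (interval 0.03 to 0.11), and it was above 0 in 984 genes. The second listed intron, set against the other inner introns, rose in 43 genes (2.89%) and fell in 24 (1.61%) of 1490, with a median of 0.08 (interval 0.02 to 0.13), so that a shift of this size was not particular to the 5'-most intron. The 3'-most intron rose in 42 genes (1.99%) and fell in 50 (2.37%) of 2107, with a median of -0.05. At the 5' end the median was 0.11 on the plus strand, and 0.05 with an interval of -0.01 to 0.09 on the minus strand. The calls were ordered the other way. On the plus strand 15 genes rose (2.40%) and 14 fell (2.24%) of 624, and on the minus strand 41 rose (3.45%) and 21 fell (1.76%) of 1190.

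**Figure D4:**
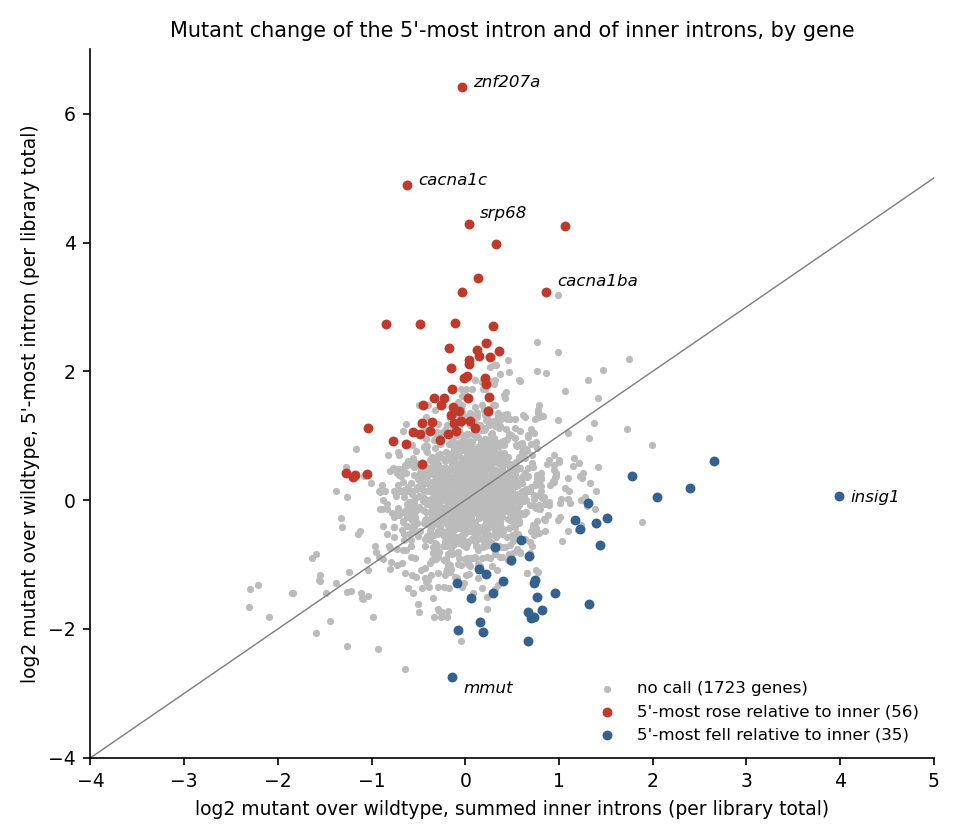
Log2 ratio of reads, mutant over wildtype and each scaled by library total, for the 5'-most intron (vertical axis) against the summed inner introns (horizontal axis) of 1814 genes; the line marks equal change. Red points are the 56 genes whose 5'-most intron rose relative to inner introns, blue points the 35 in which it fell, and grey points had no call; znf207a stands highest and insig1 farthest to the right.

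Of the 69 5'-most introns called higher, 64 lay in genes with inner introns deep enough to test, and in 7 of these (10.9%) an inner intron was called higher as well. Among the 1534 such genes whose 5'-most intron was not called higher, 124 (8.08%) had an inner intron called higher. In 39 of the 69 the 5'-most intron also rose relative to the inner introns, against 56 of all 1814 tested genes (3.09%). Both tests use the same 5'-most reads, so the second is not independent support for the first. In 1 of the 69 the gene's own reads were lower by 2-fold or more in the mutant library. This was elovl2, a fatty acid elongase gene, named after its values were seen, where the intron had 42 reads in the mutant and 46 in the wildtype library while gene reads were 210 in the mutant and 607 in the wildtype library. The 69 introns had a median length of 6453 bp and a median coefficient of 0.0309 in the mutant library and 0.0076 in the wildtype library. They were 46 of the 1192 tested on the minus strand (3.86%) and 23 of the 632 tested on the plus strand (3.64%). Among all tested introns, 2.50% were called higher on the minus strand and 3.84% on the plus strand. The share at the 5' end was thus above the background on the minus strand only, and slightly below it on the plus strand.

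The largest fold change among them was in znf207a, whose human counterpart codes for a zinc finger protein of the mitotic spindle. Its 5'-most intron (chromosome 3, 34319445 to 34322257) had 116 reads in the mutant and 1 in the wildtype library, 106 times as many relative to gene reads (counting interval 18.6 to 4216), adjusted exact p = 8.43e-28. Its inner introns held 31 reads in the mutant and 35 in the wildtype library. The intron of srp68, for a subunit of the signal recognition particle, had 26 reads in the mutant and 1 in the wildtype library, 23.5 times as many relative to gene reads (3.85 to 962, adjusted exact p = 0.000103). With 1 wildtype read the size of both changes is poorly fixed.

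In ift80, which codes for an intraflagellar transport protein of cilia, the intron had 64 reads in the mutant and 6 in the wildtype library (12.7-fold, 5.51 to 35.8, adjusted exact p = 3.86e-09). It overlaps a listed intron of another identifier. In zcchc8, whose human counterpart codes for a part of the nuclear exosome targeting complex, there were 38 reads in the mutant and 4 in the wildtype library (10.9-fold, 3.93 to 42.1, adjusted exact p = 9.24e-07).

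Of the called introns on the list of U12-type genes described below, 4 lay in genes of voltage-gated channels. The 5'-most intron of cacna1ba, an N-type calcium channel gene, had 106 reads in the mutant and 12 in the wildtype library (11.3-fold, 6.18 to 22.5, adjusted exact p = 1.42e-17). The second listed intron was also called higher, with 40 reads in the mutant and 1 in the wildtype library, and so was the third, with 90 in the mutant and 20 in the wildtype library. In cacna1da, an L-type calcium channel gene, the intron had 81 reads in the mutant and 13 in the wildtype library (8.36-fold, 4.63 to 16.4, adjusted exact p = 1.11e-13), and neither of the 2 other introns of the gene that were deep enough to test was called. In cacna1c, another L-type channel gene, it had 40 reads in the mutant and 1 in the wildtype library. With 1 wildtype read its ratio of 45.0 (7.63 to 1821) is poorly fixed, and the interval leaves out the counting error of gene reads. Gene reads of cacna1c came out as only 8 in the mutant and 9 in the wildtype library. As the smallest whole solution they may be understated, which would not change the ratio but could weaken the test. The odds ratio of 67.1 (10.8 to 2778) against inner reads does not use gene reads, but it rests on the same 1 wildtype read. In scn8ab, a sodium channel gene, it had 31 reads in the mutant and 9 in the wildtype library (3.65-fold, 1.70 to 8.72, adjusted exact p = 0.00938), and the rise relative to inner introns did not pass the test (adjusted exact p = 0.116).

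**Figure D5:**
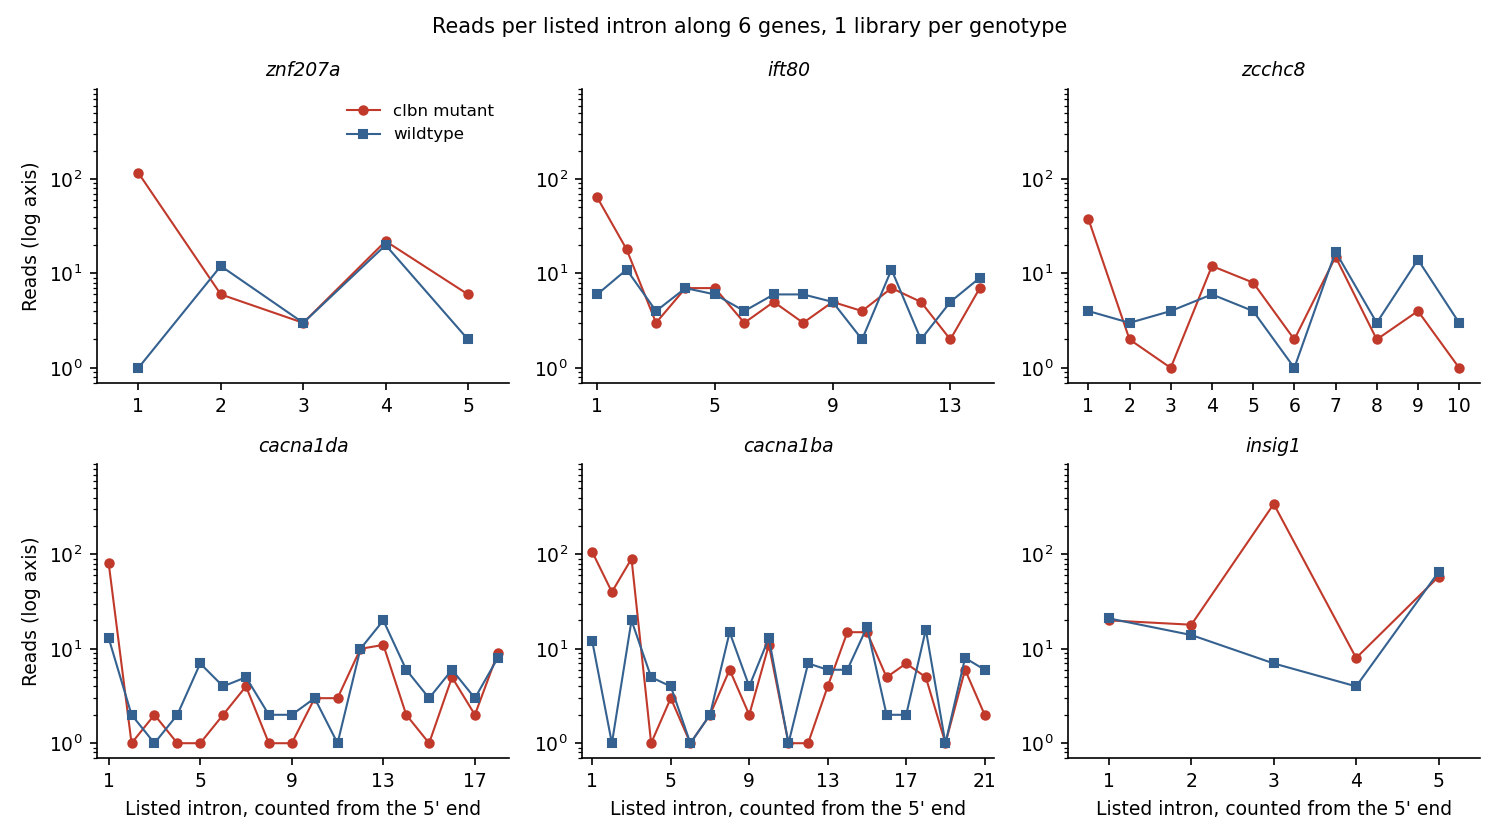
Reads per listed intron (log axis) against the place of the intron counted from the 5' end, in 6 genes, with the clbn mutant library as red circles and the wildtype library as blue squares, 1 library each. In znf207a, ift80, zcchc8 and cacna1da the libraries part at the 5'-most intron, in cacna1ba also at the next ones, and in insig1 at the third, with 342 reads in the mutant library and 7 in the wildtype library.

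Outside the 10 largest, the other 59 introns called higher had log2 ratios between 1.01 and 2.74. Some of them were deep, and 3 with the most reads are given here, picked after their values were seen. The intron of brd2a, for a bromodomain protein, had 847 reads in the mutant and 310 in the wildtype library (3.01-fold, 2.64 to 3.44, adjusted exact p = 7.21e-47), while its inner introns held 41 reads in the mutant and 57 in the wildtype library. That of pcf11, for a factor of transcript cleavage and polyadenylation, had 520 reads in the mutant and 190 in the wildtype library (2.67-fold, 2.25 to 3.17, adjusted exact p = 4.07e-25). The inner introns of pcf11 held only 16 reads in the mutant and 13 in the wildtype library, and the rise relative to them did not pass the test (adjusted exact p = 0.265). The intron of arrdc3a, an arrestin-domain gene, had 515 reads in the mutant and 247 in the wildtype library (2.05-fold, 1.76 to 2.39, adjusted exact p = 3.06e-12). The 7 genes in which an inner intron was called higher as well included, besides cacna1ba, ube2h, a ubiquitin-conjugating enzyme gene that was also picked after its values were seen. There the 5'-most intron had 192 reads in the mutant and 46 in the wildtype library, and the inner introns 62 in the mutant and 20 in the wildtype library.

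The 21 introns called lower rested on fewer reads, and in 13 the 5'-most intron also fell relative to the inner introns. Over all 1814 tested genes it fell in 35 (1.93%), and this test reuses the 5'-most reads that made the calls. The lowest was in mmut, the gene of methylmalonyl-CoA mutase, with 2 reads in the mutant and 18 in the wildtype library (ratio 0.122, 0.0138 to 0.511, adjusted exact p = 0.0141), while its inner introns held 125 reads in the mutant and 152 in the wildtype library. In fam20b, a kinase gene of proteoglycan synthesis, there were 6 reads in the mutant and 29 in the wildtype library (0.188, 0.0637 to 0.460, adjusted exact p = 0.00191), and inner reads were 116 in the mutant and 112 in the wildtype library. In ets1, a transcription factor gene, the intron of 24032 bp had 13 reads in the mutant and 48 in the wildtype library (0.280, 0.139 to 0.526, adjusted exact p = 0.00329). In these 3 genes the fall relative to inner introns, tested on the same 5'-most reads, passed as well.

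The other introns among the 10 lowest had 5 to 14 reads in the mutant library and 19 to 40 in the wildtype library. They lay in zgc:100868, rundc3ab, agap2 (an Arf GTPase-activating protein), ncapd3, hdac3 (a histone deacetylase), atg3 (an autophagy enzyme) and fbxo11a (an F-box protein). In zgc:100868, rundc3ab and agap2 the 5'-most intron also fell relative to inner introns. In ncapd3, hdac3, atg3 and fbxo11a that test was not passed, with adjusted p of 0.330, 0.213, 0.137 and 0.235. The remaining 11 had log2 ratios between -1.52 and -1.07.

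A fall relative to inner introns could also come from an inner intron. In insig1, whose product holds the sterol sensor of cholesterol synthesis in the endoplasmic reticulum, the 5'-most intron had 20 reads in the mutant and 21 in the wildtype library, while the third listed intron had 342 in the mutant and 7 in the wildtype library. The odds ratio of 5'-most to inner reads was 0.0656 (0.0292 to 0.145, adjusted exact p = 4.30e-10). In abcb4, relch and adcy5 the 5'-most intron itself had fewer reads in the mutant library, without a call relative to gene reads, while the summed inner introns had more. In abcb4, an ABC transporter gene, the 5'-most intron had 3 reads in the mutant and 17 in the wildtype library and the inner introns 93 in the mutant and 64 in the wildtype library. Of these inner introns, 1 was called higher, with 22 reads in the mutant and 7 in the wildtype library. In relch the 5'-most intron had 4 reads in the mutant and 17 in the wildtype library, and 1 inner intron had 141 in the mutant and 13 in the wildtype library. In adcy5, an adenylyl cyclase gene, the 5'-most intron had 5 reads in the mutant and 18 in the wildtype library and the inner introns 21 in the mutant and 9 in the wildtype library.

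Genes on a list of known or likely holders of a U12-type intron had larger shares of higher calls than the long genes as a whole at the 5'-most, inner and 3'-most places. The list was assembled from background knowledge and with earlier results of these data known, so it is not independent evidence, and the table does not say which intron of a gene is of the U12 type. Of 53 listed genes among the long genes, 27 had a 5'-most intron that was tested, and 8 were called higher and 0 lower (29.6% higher, against 3.78% of all tested 5'-most introns). The inner introns of the same list had 34 higher and 3 lower of 126 (27.0% higher, against 2.73% of all tested inner introns), and the 3'-most introns 5 higher and 1 lower of 19 (26.3% higher, against 2.03% of all tested 3'-most introns). The share at the 5' end was thus near that of the other places. Without genes that entered the list from earlier results, 7 of 23 5'-most introns were higher. Those called higher included znf207a, ift80, cacna1ba, cacna1c, cacna1da and scn8ab. Their sequences could not be read because no genome of the build was used here. With the listed genes left out, 61 of 1797 tested 5'-most introns were called higher. Over all tested introns, listed genes included, the share was 2.92%, and it was not computed without them.

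The other gene lists had 0 or 1 higher calls each among their 5'-most introns, on small numbers, against 3.78% higher and 1.15% lower over all tested 5'-most introns. Their median log2 ratios lay between 0.09 and 0.25, against 0.12 over all 1824. Of 41 tested neuronal genes (median 0.25) 1 was higher and 0 lower. This was cadm3, a neuronal adhesion molecule gene, with 36 reads in the mutant and 11 in the wildtype library (3.24-fold, 1.61 to 7.06, adjusted exact p = 0.00961). Of 32 transcription factor genes (median 0.16) 1 was higher and 1 lower, nfia with 19 reads in the mutant and 5 in the wildtype library (5.31-fold, 1.92 to 18.2, adjusted exact p = 0.0194) and ets1 as above. Of 26 splicing genes (median 0.10) 1 was higher and 0 lower, thrap3b with 18 reads in the mutant and 4 in the wildtype library (5.47-fold, 1.80 to 22.2, adjusted exact p = 0.0189).

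Of 18 tested extracellular matrix genes (median 0.23) 1 was higher and 0 lower, the laminin gene lama5 with 60 reads in the mutant and 25 in the wildtype library (2.42-fold, 1.49 to 4.02, adjusted exact p = 0.00588). Of 15 chromatin genes (median 0.18) brd2a was higher and 2 were lower. These were hdac3, with 7 reads in the mutant and 26 in the wildtype library, and the nuclear receptor coactivator gene ncoa2, named to complete the count, with 83 in the mutant and 223 in the wildtype library. The 25 muscle genes (median 0.09) had 0 calls in either direction, and their values ran from atp2a2a, a calcium pump gene, with 14 reads in the mutant and 7 in the wildtype library, to tpm2, a tropomyosin gene, with 7 reads in the mutant and 21 in the wildtype library (adjusted exact p = 0.130). Outside the calls, the chromatin gene with the highest ratio was hdac1, a histone deacetylase gene, with 21 reads in the mutant and 6 in the wildtype library (adjusted exact p = 0.0534). The lowest ratios of the other lists were in sptan1, a spectrin gene, with 12 reads in the mutant and 26 in the wildtype library, in srsf3a, a splicing factor gene, with 8 in the mutant and 12 in the wildtype library, and in matn4, a matrilin gene, with 24 in the mutant and 28 in the wildtype library. Muscle genes had the lowest 5'-most level of these lists relative to inner introns, with a median log2 ratio of -1.64 in the mutant and -2.12 in the wildtype library over 42 genes. Over all 4474 genes it was -0.66 in the mutant and -0.73 in the wildtype library. Intron length was not matched in this comparison, and its part in the low level of the muscle genes was not tested.

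The minimum of 5 listed introns set the membership. The 917 genes with exactly 5 had a median 5'-most coefficient of 0.0178 in the mutant and 0.0184 in the wildtype library. The 1199 genes with 4 listed introns, just outside, had 0.0214 in the mutant and 0.0199 in the wildtype library. The median log2 level against inner introns was -0.39 in the mutant and -0.35 in the wildtype library with exactly 5. With 4 it was -0.25 in the mutant and -0.35 in the wildtype library. The median log2 change relative to gene reads was 0.04 with exactly 5 (360 tested) and 0.11 with 4 (430 tested). The mutant change was thus not confined to genes inside the limit.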

How the data were processed

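RNA of whole larvae was read in 1 clbn mutant and 1 wildtype library, grouped by the genotype labels. The authors deposited 1 table of introns with whole read counts per intron and library, not normalized. Per the file headers, the authors added RPuKM values (an RPKM per unique kilobase of intron and library size), a gene value with no stated unit, and a retention coefficient, which equalled the ratio of RPuKM to the gene value. The build is Zv9, per the submitters' processing notes; for the aligner, the counter, strand use and multi-mapping, nothing is stated (not given in the sources used here). Positions are printed counted from 1. Symbols come from a RefSeq table of another assembly (GRCz12tu), used for names only, and 4301 of the 4474 introns had one.

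Whole gene reads were recovered from the gene values as the smallest whole solution (10223 of 10223 values, within 1e-06 bp of a whole length). Such a solution may understate reads by a whole factor and so weaken tests. Where both libraries together gave 20 or more reads, Fisher's exact test was run on intronic and gene reads, p-values were adjusted (Benjamini-Hochberg) across every intron tested, and introns were called at an adjusted p under 0.05 and 2-fold. Within genes, reads of the 5'-most intron were tested against summed inner reads. Log2 ratios carry a pseudocount of 0.5; printed fold changes and ratios do not. Their 95% intervals are exact (Clopper-Pearson for intronic reads, conditional for odds ratios) and hold counting error alone, as PCR copies of a molecule are not independent. Intervals of medians and shares treat introns or genes as independent and are descriptions. Calculations used Python 3.11.15, numpy 2.4.6, pandas 2.3.3 and scipy 1.17.1, and the scripts were tested on simulated data.

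Genes were named by rule: the 10 highest and 10 lowest called introns, the 5 largest rises and falls against inner introns, the 5 with the highest wildtype coefficient, the 5 with most wildtype reads, the 5 longest, every called intron on the U12 list, and the highest and lowest of each other list; exceptions are marked, and some genes that the rule names are not reported here. The introns, gene lists and rules were chosen with earlier results of these data known. Introns under several gene identifiers were kept apart.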

Additional observations from a re-analysis of the deposited data

Results flagged for a closer look

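Introns listed under several gene identifiers stand outside the 4474, and 90 sets of identifiers had 5 or more of them. Their 5'-most introns, with 10 of the 4474 that lack a gene value, could only be scaled by library total. Of 43 with at least 20 reads, 1 was called higher and 2 lower in the mutant library (Fisher's exact test, Benjamini-Hochberg over these 43). Scaled in this way, but adjusted over all 20223 tested introns, 3.89% of these were called higher and 2.47% lower. The counts among the 43 are too small to be set above or below that background. The one called higher was the 5'-most intron of ccnt2a, a cyclin gene of transcription elongation, at chromosome 9, 24275242 to 24275817 on Zv9. It had 56 reads in the mutant library and 7 in the wildtype library, a log2 ratio of 3.05 (adjusted exact p = 2.95e-10), and was marked because it lies outside the main comparison and above the wildtype library. Those called lower lay in nqo1, a quinone oxidoreductase gene, with 4 reads in the mutant and 22 in the wildtype library (log2 ratio -2.18, adjusted exact p = 0.0100), and in the keratin gene krt92, with 33 reads in the mutant and 82 in the wildtype library (log2 ratio -1.16, adjusted exact p = 0.00106). Changes in the expression of these genes cannot be told apart from changes in retention here.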

How the results depend on the processing

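No paired analysis was possible because each genotype has 1 library. No alternative turned round the sign of a median. At a 4-fold minimum the share of higher calls fell below that of all tested introns (1.37% against 1.54%). The median log2 level against inner introns was, with the median of single inner introns, -0.76 in the mutant and -0.87 in the wildtype library; with a length-matched inner intron, -0.26 in the mutant and -0.33 in the wildtype library; from 1000 bp of unique length, -0.56 in the mutant and -0.59 in the wildtype library; with 20 reads in each intron, -0.97 in the mutant and -1.09 in the wildtype library; in genes of 10 or more listed introns, -0.91 in the mutant and -1.10 in the wildtype library; with no pseudocount, -0.77 in the mutant and -0.84 in the wildtype library. With the 3'-most intron among the inner ones it was -0.80 in the wildtype library. By strand, chosen after seeing the data, it was -0.51 in the mutant and -0.57 in the wildtype library (plus) and -0.75 in the mutant and -0.80 in the wildtype library (minus). The median change was 0.16 in genes of 10 or more listed introns and 0.15 on the plus strand, and the median difference from inner introns was 0.13 in genes of 10 or more listed introns and 0.11 on the plus strand. Among the alternatives, the share of calls over all tested introns was computed only for the 4-fold minimum and for scaling by library total. Risen and fallen calls at the 4-fold minimum can be set beside those of other places. They numbered 20 and 16 for the 5'-most intron (of 1814) and 26 and 13 for the second listed intron (of 1490). For the 3'-most intron they numbered 29 and 21 (of 2107), so that the 5'-most intron had the smallest share of 4-fold rises. All other counts that follow have no background to be read against. Higher, lower, risen and fallen calls numbered 30, 8, 24 and 11 in genes of 10 or more listed introns (609 tested), 25, 3, 20 and 16 at a 4-fold minimum, and 183, 90, 197 and 138 at 2-fold with no test. A minimum of 50 reads left 44 higher and 13 fallen, a minimum of 5 reads left 10 lower, and scaling by library total gave 43 lower. The cause was not tested beyond the smaller number of introns that stricter minimums leave. In the other 36 cases the value stayed within its interval or within 1.5 times the count. Depth limits all of this, since the median 5'-most intron had 7 reads in each library, and 2648 of the 4474 could not be compared.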
